A study of Mus musculus with 5 samples.

Results

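Potassium channel genes were described in the hearts of mice that had eaten a high-fat, high-sucrose diet (HFHS-Fe) or standard chow (chow-Fe), in both cases followed by intravenous iron. The genes were the protein-coding genes whose symbol begins with Kcn in GENCODE M21. Of 94 such genes among the 49315 genes counted, 44 had a summed count of 50 or more over the 5 libraries and are the genes described here; 36 of the other 50 had between 1 and 48 counts in all and 14 had none. There were 3 HFHS-Fe libraries and 2 chow-Fe libraries of poly-A RNA from mouse heart. Every animal had been on its diet for 18 weeks, had received 1 intravenous dose of iron dextran, and had its heart flushed with saline and taken 48 hours later. The labels name no strain, sex or age. Because both groups carried iron, the comparison asks how diet alters expression in iron-treated hearts and holds no measure of iron itself. Whether each library is a mouse of its own is not stated, so p-values measure the spread between these libraries, which may be technical.

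Potassium channels let potassium leave heart muscle cells after each beat and so bring the membrane voltage back to rest, a process called repolarization. In the mouse ventricle, the fast transient outward current (Ito) comes from Kcnd2 and Kcnd3 channels, and the delayed currents that follow (IKur and IKslow) come from other voltage-gated channels, Kcna5 among them. The inward rectifiers hold the resting voltage (IK1), answer acetylcholine (IKACh) or open when ATP falls (IKATP), while IKr and IKs, the main repolarizing currents of the human ventricle, are small in the adult mouse. Auxiliary subunits carry no current and change how the pore proteins open or reach the membrane.

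What the pore genes share in sequence is the selectivity filter, the short stretch that lets potassium through and holds back sodium. The longest GENCODE M21 coding sequence of each gene was searched in frame, on the coding strand, for the filter codons, spelled GGNTACGGN, GGNTATGGN, GGNTTCGGN or GGNTTTGGN. All 36 Kcn genes of the channel families held at least 1 match and none of the 8 auxiliary-subunit genes did, against 13.4% of 21400 coding genes, whose coding sequences differ in length. The stretches of pore genes to which the results below return are shown 5′ to 3′ (GRCm38), with the matched codons in capitals.
Kcnj11 (chr7:46099481-46099519, minus strand): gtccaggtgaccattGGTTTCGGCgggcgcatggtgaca
Kcnj8 (chr6:142566433-142566471, minus strand): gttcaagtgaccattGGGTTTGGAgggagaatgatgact
Kcna5 (chr6:126533730-126533768, minus strand): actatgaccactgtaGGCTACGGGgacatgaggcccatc
Kcnh2 (chr5:24325540-24325578, minus strand): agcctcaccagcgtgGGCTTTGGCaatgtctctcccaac
Kcnk3, second filter (chr5:30622193-30622231, plus strand): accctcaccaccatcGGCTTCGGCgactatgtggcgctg
Kcnd2 (chromosome 6, plus strand, across an exon junction): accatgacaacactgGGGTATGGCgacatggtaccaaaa
The middle codon of the match is TTC or TTT in Kcnj11, Kcnj8, Kcnh2 and the second filter of Kcnk3, and TAC or TAT in Kcna5 and Kcnd2. Kcnk3 encodes a tandem-pore channel and held 2 matches, 1 for each pore of the subunit. The number of matches does not give the number of pores in general. The tandem-pore gene Kcnk2 held 2 matches, but Kcnk1 and Kcnk6 held 1 each, and the inward rectifiers Kcnj2 and Kcnj12 held 2 each.

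Levels of different genes were compared per length, as fragments per kilobase of exon, scaled to library size (FPKM, computed from the counts and the exon lengths in the files). The Kcn genes fell over a wide range: 7 had a mean of 10 FPKM or more (the average of the group means), 15 lay between 1 and 10 FPKM and 22 lay under 1 FPKM. The highest was the tandem-pore gene Kcnk3, with 17.0% of the summed FPKM of the 44 genes. Next came Kcnip2, the calcium-binding partner of the Ito channels, with 14.6%, and Kcnj11, the pore of the ATP-sensitive channel of heart muscle, with 12.3%. Kcnj8, Kcnj5, Kcnj3 and Kcng2 followed, with between 5.83% and 7.59% each. Among the voltage-gated pore genes Kcna5 was highest, at 7.98 FPKM in HFHS-Fe and 11.7 FPKM in chow-Fe hearts. Kcne1, the classic partner of the IKs pore, stood at 0.543 FPKM in HFHS-Fe and 0.508 FPKM in chow-Fe hearts, far below its pore gene Kcnq1 at 6.77 and 5.31 FPKM. Kcnma1, the large-conductance calcium-activated channel of smooth muscle, had 1, 2 and 2 counts in HFHS-Fe and 1 and 5 counts in chow-Fe libraries and was not among the 44.

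**Figure D1:**
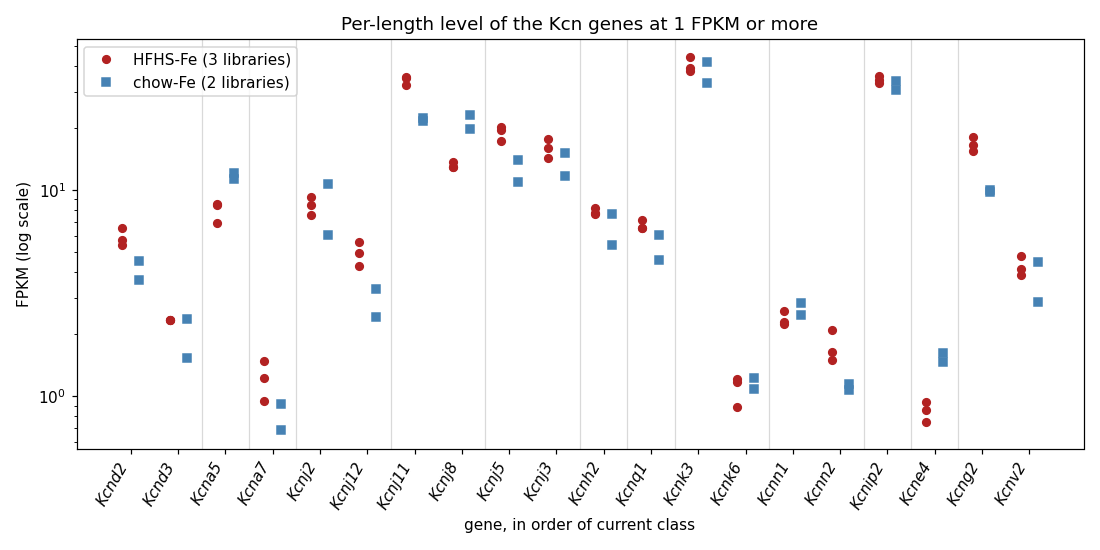
Per-length level (FPKM, log axis) of 20 Kcn genes with a mean of at least 1 FPKM, ordered by current class, with 1 point per library; vertical lines separate the classes. The HFHS-Fe points lie above the chow-Fe points for Kcnj11, Kcnj5 and Kcng2 and below them for Kcnj8, Kcna5 and Kcne4.

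In HFHS-Fe hearts 11 of the 44 genes rose and 4 fell. Among those that rose were Kcnj11, Kcnj5, Kcnj12, Kcng2, Kcnd2, Kcnq1 and Kcnn2, by 1.28-fold to 1.73-fold, and the low-count genes Kcnc1 and Kcnk1, by 3.43-fold and 2.86-fold. Those that fell were Kcnj8, Kcna5, Kcnk2 and Kcne4. The call was an adjusted p under 0.05 in edgeR's quasi-likelihood test over all 14221 tested genes, and all 44 Kcn genes passed the filter on low counts, which looks at the counts in either group. Kcnc1 and Kcnk1, with 12 and 6 and with 10 and 6 chow-Fe counts, passed it only through the HFHS-Fe libraries, where they were higher. Of the Kcn genes 25.0% were called higher, against 19.4% of all tested genes, and 9.09% were called lower, against 18.7% of all tested genes. In either direction 34.1% of the Kcn genes were called, against 38.1% of all tested genes. As a set, the Kcn genes were thus called about as often as genes in general. Their median log2 fold change was 0.27, and that of all tested genes was -0.01. The HFHS-Fe libraries all lay above the chow-Fe libraries for 17 Kcn genes (38.6%, against 29.2% of tested genes) and all below for 7 (15.9%, against 29.4%). Together that is 24 of 44 Kcn genes without overlap (54.5%), against 58.5% of tested genes.

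**Figure D2:**
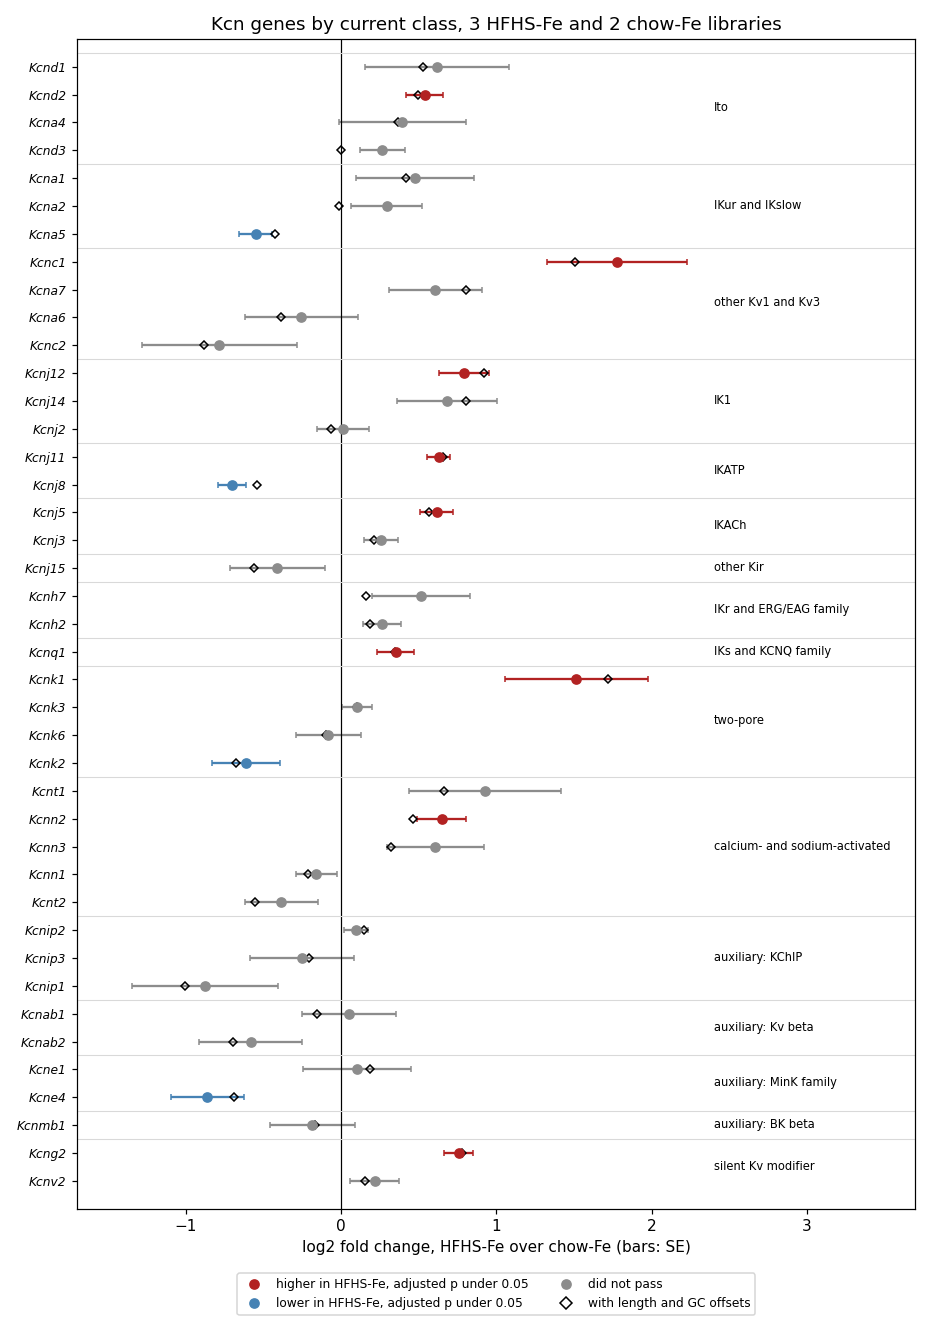
Log2 fold change of HFHS-Fe over chow-Fe for 41 of the 44 Kcn genes, grouped by current class. Filled circles with SE bars are the edgeR estimates of 3 against 2 libraries, coloured by call, and open diamonds are the estimates with length and GC offsets. The inward rectifiers Kcnj11 and Kcnj8 lie on opposite sides of 0.

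Fold changes in these libraries followed gene length. Among all tested genes the median log2 fold change was -0.47 among the shortest 10% by exon length and 0.32 among the longest 10%. The Kcn genes had a median exon length of 4894 bases, against 4009 bases for all tested genes, and 7 of them were among the longest 10%. When each library was offset for its own trend on exon length and GC content, 10 Kcn genes were higher and 4 lower. All of these had been called in the same direction without the offsets, and 1 gene called without them lost its call. The median log2 fold change of the Kcn genes was then 0.17, and that of all tested genes -0.01. With the offsets 15.8% of all tested genes were called higher and 15.1% lower, 30.9% in either direction.

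**Figure D3:**
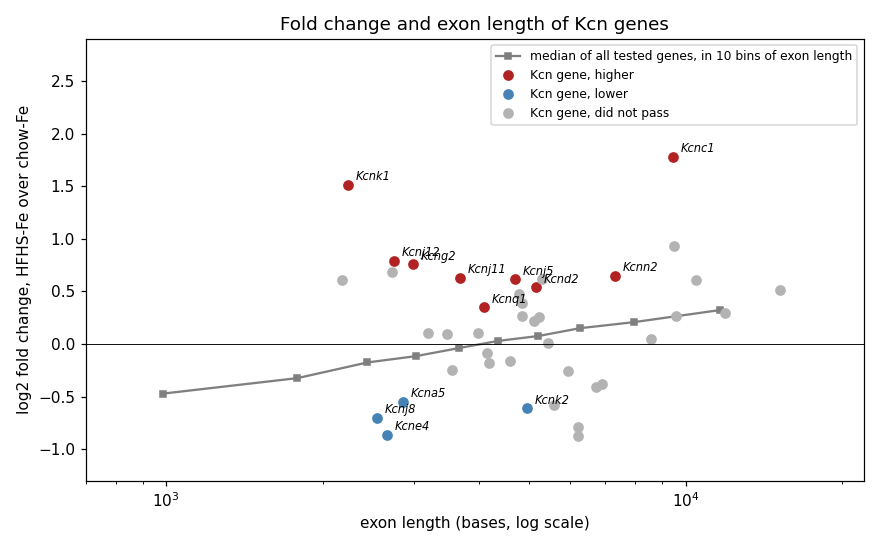
Log2 fold change of HFHS-Fe over chow-Fe against exon length (log axis) for 41 of the 44 Kcn genes, with the median of all tested genes in 10 equal bins of exon length (grey line, placed at the median length of each bin). Kcnj12, Kcng2 and Kcnj11 lie above the grey line at short lengths, and Kcnn2 lies above it at a longer one.

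In whole-tissue RNA, fewer cells of a type and less RNA per cell cannot be told apart. Of 10 cardiomyocyte markers 4 were higher in HFHS-Fe hearts and 4 lower, with a summed level of 63970 to 67290 CPM in HFHS-Fe and 55630 to 61590 CPM in chow-Fe libraries (CPM, counts scaled to library size with trimmed-mean factors). The higher sum came from Myh6, which averaged 23360 CPM in HFHS-Fe and 13300 CPM in chow-Fe libraries. The 4 lower markers were Tnnt2, Tnni3, Myl2 and Myl3. Lower in HFHS-Fe hearts were 5 of 7 endothelial, 7 of 7 fibroblast, 8 of 8 macrophage and 5 of 5 red cell markers. Of all tested genes 18.7% were called lower and 19.4% higher. With the length and GC offsets 6, 5, 7 and 5 of these markers were lower, against 15.1% of all tested genes. The summed levels of these lists were 1212 to 1234, 1542 to 1578, 112 to 127 and 259 to 534 CPM in HFHS-Fe libraries, against 1885 to 2078, 2049 to 2077, 213 to 236 and 1429 to 1635 CPM in chow-Fe libraries. Markers of lymphocytes, nerve and fat were at most 5.90, 16.1 and 0.608 CPM in sum. Of 8 lymphocyte markers 2 were tested and 1, Cd79b, was lower, but not with the offsets (adjusted p = 0.0748). Cd79b had 9, 4 and 6 counts in HFHS-Fe and 31 and 15 in chow-Fe libraries. It passed the filter on low counts only through the chow-Fe libraries, where it was higher. Of 6 conduction-system markers 4 were tested and 2, Hcn4 and Cntn2, were higher. Their list summed to 21.4 to 27.4 CPM in HFHS-Fe and 18.1 to 30.1 CPM in chow-Fe libraries. Cntn2 had 23, 7 and 15 counts in HFHS-Fe and 4 and 4 in chow-Fe libraries. It passed the filter on low counts only through HFHS-Fe libraries, where it was higher. With the length and GC offsets 2 were higher and 1, Tbx3, was lower (-0.46, adjusted p = 0.0363). The part of these shifts in the Kcn results was not tested. Of 6 markers of atrial muscle, 3 were close to absent although the hearts are described as whole: Sln was at most 0.0624 CPM and Bmp10 at most 0.203 CPM in any library. Myl7, the atrial myosin light chain, was at 0.0624, 0.502 and 0.135 CPM in HFHS-Fe and 0 and 0.222 CPM in chow-Fe libraries. The other 3 were detected at higher levels than these, with Myl4 at 0.790 to 1.12 CPM, Stard10 at 13.2 to 16.2 CPM and Nppa at 32.7 to 46.1 CPM in HFHS-Fe libraries, and 1.73 to 2.00, 16.5 to 22.8 and 31.8 to 87.5 CPM in chow-Fe libraries. The whole list summed to 47.2 to 63.6 CPM in HFHS-Fe and 56.9 to 105.8 CPM in chow-Fe libraries. Of the 3 that could be tested, 2 (Myl4 and Stard10) were lower. With the length and GC offsets only 1 was, as Stard10 did not pass (-0.29, adjusted p = 0.138).

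Of the 4 genes of the transient outward current, Kcnd2 rose. It stood at 33.9, 29.5 and 28.0 CPM in HFHS-Fe hearts, against 18.8 and 23.2 CPM in chow-Fe hearts, so the groups did not overlap. The log2 fold change was 0.54 (SE 0.117, adjusted p = 0.00241), and it was 0.50 with the length and GC offsets. Kcnd3, which encodes the other pore of this current, was at 22.6 CPM in each HFHS-Fe library and at 14.7 and 22.8 CPM in the chow-Fe hearts. Chow-Fe replicate 2 thus matched the HFHS-Fe hearts and chow-Fe replicate 1 lay below them (adjusted p = 0.170). Kcna4, the pore of the slowly recovering component of Ito, was at 1.75, 1.58 and 0.878 CPM in HFHS-Fe and 1.35 and 0.778 CPM in chow-Fe hearts (adjusted p = 0.486), and Kcnd1, a minor relative, averaged 0.841 CPM in HFHS-Fe and 0.548 CPM in chow-Fe hearts (adjusted p = 0.318).

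Kcnip2, which the fast Ito of the mouse ventricle requires, did not pass. It was at 115, 119 and 124 CPM in HFHS-Fe hearts and 106 and 117 CPM in chow-Fe hearts, and the groups overlapped (log2 fold change 0.10, SE 0.0764, adjusted p = 0.347). The per-length ratio of Kcnip2 to Kcnd2, which no scaling of the libraries affects, was 5.05, 5.96 and 6.54 in HFHS-Fe hearts and 8.35 and 7.48 in chow-Fe hearts. The ratio was lower in every HFHS-Fe library. Its exact two-sided permutation p was 0.2, the smallest that 3 libraries against 2 allow (0.24 adjusted over the 6 ratios computed). None of the 6 ratios was offset for the trend on exon length, and the exons of Kcnip2 hold 3476 bases and those of Kcnd2 5152. The ratio of Kcnd2 to Kcnd3 was 2.79, 2.43 and 2.31 in HFHS-Fe hearts and 2.37 and 1.89 in chow-Fe hearts, which overlapped (exact permutation p = 0.4, adjusted 0.4).

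Among the genes of the delayed rectifiers, Kcna5, the pore of the 4-aminopyridine-sensitive current IKur, fell. It was at 24.5, 19.8 and 24.3 CPM in HFHS-Fe hearts, against 34.5 and 32.4 CPM in chow-Fe hearts. Its log2 fold change was -0.55 (SE 0.106, adjusted p = 0.00102) and -0.43 with the offsets. Kcna1 and Kcna6, the neighbours of Kcna5 on chromosome 6, were 104985 and 172917 bases away and did not pass, with log2 fold changes of 0.48 and -0.26 at under 2 CPM in every library. Kcna2, a pore of the same family, averaged 4.30 CPM in HFHS-Fe and 3.51 CPM in chow-Fe hearts (adjusted p = 0.341).

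Kcng2 encodes a subunit that forms no channel by itself and joins other voltage-gated subunits to change their gating. It was at 46.1, 49.5 and 54.2 CPM in HFHS-Fe hearts and 29.8 and 29.2 CPM in chow-Fe hearts, without overlap. With a log2 fold change of 0.76 (SE 0.0931, adjusted p = 2.56e-05) it was among the firmest calls, and it held at 0.78 with the offsets. Of its exon bases, 9.10% are shared with D330025C20Rik on the opposite strand, and the strand setting of the counting is not given. Kcnv2, the other silent subunit above the count minimum, was at 21.2, 19.7 and 24.6 CPM in HFHS-Fe hearts and 14.7 and 23.0 CPM in chow-Fe hearts, with overlap (adjusted p = 0.309). Amigo1, a membrane protein that binds voltage-gated channels, averaged 23.2 ± 2.16 CPM in HFHS-Fe hearts (SD, n = 3) and 20.8 ± 2.98 CPM in chow-Fe hearts (SD, n = 2), with an edgeR adjusted p of 0.308.

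Of the inward rectifiers of IK1, Kcnj12 rose. Its values were 13.7, 15.4 and 11.8 CPM in HFHS-Fe hearts, against 6.66 and 9.11 CPM in chow-Fe hearts, without overlap. The log2 fold change was 0.79 (SE 0.163, adjusted p = 0.00161) and 0.92 with the offsets. Kcnj2, the main IK1 pore of the mouse ventricle, had the higher level per length and did not separate by diet. It was at 50.2, 45.9 and 41.3 CPM in HFHS-Fe hearts and at 33.0 and 57.9 CPM in chow-Fe hearts, so that the chow-Fe libraries lay on both sides of the HFHS-Fe range (log2 fold change 0.01, SE 0.168, adjusted p = 0.963). The per-length ratio of Kcnj2 to Kcnj12 was 1.85, 1.5 and 1.76 in HFHS-Fe hearts and 2.5 and 3.21 in chow-Fe hearts, lower in every HFHS-Fe library (exact permutation p of 0.2, adjusted 0.24). Kcnj14, also of this class, with 1.94 CPM in HFHS-Fe and 1.21 CPM in chow-Fe hearts on average, did not pass (adjusted p = 0.109).

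Kcnj3 and Kcnj5 encode the subunits that together form the acetylcholine-gated channel, best known from atrium and pacemaker tissue. Kcnj5 rose: it was at 91.7, 94.8 and 80.8 CPM in HFHS-Fe hearts, against 51.0 and 65.3 CPM in chow-Fe hearts. The groups did not overlap, and the log2 fold change was 0.62 (SE 0.105, adjusted p = 0.000396), or 0.56 with the offsets. Kcnj3 was at 91.8, 83.4 and 74.9 CPM in HFHS-Fe hearts and 60.9 and 78.5 CPM in chow-Fe hearts, and the groups overlapped (log2 fold change 0.26, SE 0.109, adjusted p = 0.0770). The lincRNA Gm26794 lies over 31.1% of the Kcnj3 exon bases on the opposite strand but had 112 counts in all, against 6278 for Kcnj3. The per-length ratio of Kcnj5 to Kcnj3 was 1.11, 1.26 and 1.20 in HFHS-Fe hearts and 0.932 and 0.926 in chow-Fe hearts, higher in every HFHS-Fe library (exact permutation p of 0.2, adjusted 0.24).

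The pore genes of the ATP-sensitive channel moved in opposite directions, Kcnj11 up and Kcnj8 down. This channel is built from a pore, Kcnj11 or Kcnj8, and a sulfonylurea receptor, Abcc9 or Abcc8. The combination of Kcnj11 with Abcc9 is known from ventricular muscle and that of Kcnj8 with Abcc9 from vascular smooth muscle and pericytes. Kcnj11 (ENSMUSG00000096146, chromosome 7 from 46093953 to 46100764, GRCm38) was at 119, 128 and 129 CPM in HFHS-Fe hearts and at 79.7 and 82.5 CPM in chow-Fe hearts. It rose 1.55-fold, with a log2 fold change of 0.63 (SE 0.0754, adjusted p = 2.09e-05). Kcnj8 (ENSMUSG00000030247, chromosome 6 from 142564837 to 142571614) was at 32.8, 35.0 and 32.9 CPM in HFHS-Fe hearts and at 59.1 and 50.1 CPM in chow-Fe hearts. It fell by 0.70 on the log2 scale (SE 0.0916, adjusted p = 4.31e-05), and by 0.54 with the offsets. The per-length ratio of Kcnj11 to Kcnj8 was 2.52, 2.53 and 2.72 in HFHS-Fe hearts, against 0.936 and 1.14 in chow-Fe hearts, with no overlap (exact permutation p of 0.2, adjusted 0.24).

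The receptor genes lie beside the pore genes, Abcc9 16248 bases from Kcnj8 and Abcc8 3759 bases from Kcnj11. Abcc9, the more abundant receptor with 48.4 FPKM in HFHS-Fe and 30.1 FPKM in chow-Fe hearts, against 3.65 and 2.83 FPKM for Abcc8, was at 424, 419 and 373 CPM in HFHS-Fe hearts and 227 and 277 CPM in chow-Fe hearts. It rose with a log2 fold change of 0.68 (SE 0.0911, adjusted p = 5.11e-05), and 0.48 with the offsets, opposite to its neighbour Kcnj8. Abcc8 was at 29.3, 31.2 and 28.2 CPM in HFHS-Fe hearts and 20.4 and 25.4 CPM in chow-Fe hearts. It passed (log2 fold change 0.37, adjusted p = 0.0168) but not with the offsets (0.15, adjusted p = 0.315; range over the alternatives 0.00312 to 0.315). The per-length ratio of Abcc9 to Abcc8 averaged 13.2 ± 0.637 in HFHS-Fe hearts (SD, n = 3) and 10.7 ± 0.181 in chow-Fe hearts (SD, n = 2; exact permutation p of 0.2, adjusted 0.24). Of 6 pericyte markers 3 were lower and 1 higher in the same HFHS-Fe hearts, with summed levels of 850.7 to 899 CPM in HFHS-Fe and 1039 to 1095 CPM in chow-Fe libraries. Of 6 smooth muscle markers 1 was lower and 1 higher, with 276 to 299.6 CPM in HFHS-Fe and 227 to 231 CPM in chow-Fe libraries. The difference in each of these sums came mostly from 1 gene. For pericytes it was Rgs5, which averaged 722 CPM in HFHS-Fe and 925 CPM in chow-Fe libraries, while Notch3 averaged 37.9 and 27.1 CPM. For smooth muscle it was Smtn, which averaged 169 and 111.7 CPM, while Acta2 averaged 39.6 and 48.1 CPM. With the length and GC offsets 3 pericyte markers were lower and none higher, while 1 smooth muscle marker was higher and none lower. Notch3 (adjusted p = 0.0577) and Acta2 (adjusted p = 0.986) then did not pass. The shares of all tested genes were 18.7% lower and 19.4% higher, and 15.1% and 15.8% with the offsets. The part of these cells in the fall of Kcnj8 was not tested.

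**Figure D4:**
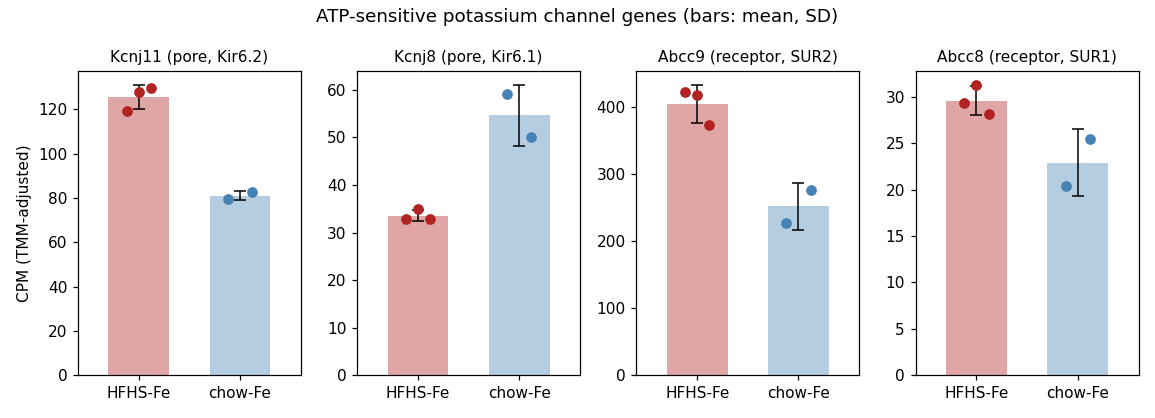
Level (CPM, linear axes from 0) of the pore genes Kcnj11 and Kcnj8 and the receptor genes Abcc9 and Abcc8 of the ATP-sensitive channel in HFHS-Fe (left in each panel, 3 libraries) and chow-Fe hearts (right, 2 libraries). Bars are means with SD, and points are libraries. Kcnj11 lies at 119 to 129 CPM in HFHS-Fe and 79.7 to 82.5 CPM in chow-Fe hearts, while Kcnj8 lies at 32.8 to 35.0 and 50.1 to 59.1 CPM.

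Of the genes of the rapid and slow delayed rectifiers described here, Kcnq1 passed. Kcnh2, the IKr pore, was at 37.0, 37.4 and 39.7 CPM in HFHS-Fe hearts and 26.3 and 37.0 CPM in chow-Fe hearts (log2 fold change 0.27, SE 0.122, adjusted p = 0.102). Kcnq1, the IKs pore, was at 26.8, 26.9 and 29.4 CPM in HFHS-Fe hearts and 18.7 and 24.8 CPM in chow-Fe hearts. It passed with a log2 fold change of 0.35 (SE 0.119, adjusted p = 0.0321), but leaving out any of the HFHS-Fe libraries or chow-Fe replicate 1 ended the call, with a log2 fold change of 0.16 without chow-Fe replicate 1. The antisense transcript Kcnq1ot1 shares 121 exon bases with Kcnq1 and had 392 counts, against 2030 for Kcnq1. It was higher too (log2 fold change 0.61, adjusted p = 0.0326) but not with the offsets (-0.18, adjusted p = 0.539). Kcne1 was at 2.12, 1.87 and 1.22 CPM in HFHS-Fe hearts and 1.30 and 1.94 CPM in chow-Fe hearts (adjusted p = 0.844). Kcnh7, of the Kcnh2 family, averaged 2.24 and 1.56 CPM (adjusted p = 0.218).

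Tandem-pore channels carry the background leak of potassium at rest. Kcnk3, the most abundant of them, was at 150.3, 155 and 174 CPM in HFHS-Fe hearts and 132 and 166 CPM in chow-Fe hearts, with overlap and a log2 fold change of 0.10 (SE 0.0984, adjusted p = 0.451). Kcnk2, a channel opened by stretch, fell: it was at 3.19, 3.52 and 3.24 CPM in HFHS-Fe hearts, against 5.90 and 4.22 CPM in chow-Fe hearts. Its log2 fold change was -0.61 (SE 0.220, adjusted p = 0.0411), and the call ended when any of the HFHS-Fe libraries or chow-Fe replicate 1 was left out, with -0.35 without chow-Fe replicate 1. The antisense gene A430027H14Rik covers 12.2% of the Kcnk2 exon bases but had 10 counts in all. Kcnk1 rose on few counts: 25, 14 and 18 in HFHS-Fe libraries and 10 and 6 in chow-Fe libraries, or 1.56, 1.00 and 1.22 CPM and 0.541 and 0.333 CPM. The log2 fold change was 1.52 (SE 0.461, adjusted p = 0.0184), and the call ended without HFHS-Fe replicate 1 (1.33) or chow-Fe replicate 2 (1.22). Kcnk6 averaged 4.54 CPM in HFHS-Fe and 4.80 CPM in chow-Fe hearts (adjusted p = 0.787).

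Among the channels opened by calcium or sodium, 1 of 5 rose. Kcnn2, a small-conductance calcium-activated channel, was at 12.1, 15.4 and 11.0 CPM in HFHS-Fe hearts and 7.90 and 8.44 CPM in chow-Fe hearts, without overlap (log2 fold change 0.65, SE 0.157, adjusted p = 0.00492, and 0.46 with the offsets). Its relatives did not pass: Kcnn1 averaged 10.9 CPM in HFHS-Fe and 12.2 CPM in chow-Fe hearts, and Kcnn3 averaged 2.56 and 1.67 CPM. The sodium-activated channel genes Kcnt2 and Kcnt1 did not pass either. Kcnt2 averaged 4.01 CPM in HFHS-Fe and 5.23 CPM in chow-Fe hearts, and Kcnt1 averaged 1.21 and 0.635 CPM.

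Of 5 further voltage-gated genes, best known from neurons or skeletal muscle, 2 rose from low levels. Kcnc1, whose group means stayed under 2 CPM, had 20, 31 and 25 counts in HFHS-Fe and 12 and 6 in chow-Fe libraries (log2 fold change 1.78, SE 0.448, adjusted p = 0.00628), and lost its call without chow-Fe replicate 2, with 1.38. Kcna7, Kcna6 and Kcnc2 averaged 2.67, 1.36 and 0.596 CPM in HFHS-Fe hearts and 1.75, 1.65 and 1.01 CPM in chow-Fe hearts and did not pass. The inward rectifier Kcnj15 averaged 1.57 CPM in HFHS-Fe and 2.08 CPM in chow-Fe hearts (adjusted p = 0.315).

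None of the 8 auxiliary-subunit genes rose and 1 fell. Kcne4, of the family of Kcne1 and known to damp several voltage-gated channels, was at 2.00, 2.30 and 2.5 CPM in HFHS-Fe hearts and 4.33 and 3.89 CPM in chow-Fe hearts. The groups did not overlap, and the log2 fold change was -0.86 (SE 0.237, adjusted p = 0.0106) and -0.69 with the offsets. Without chow-Fe replicate 1 it was -0.78 and the call ended. Besides Kcnip2 and Kcne1, given above, the Kcnip3, Kcnip1, Kcnab1, Kcnab2 and Kcnmb1 genes did not pass. Kcnab2, a beta subunit of the Kcna family, averaged 1.31 CPM in HFHS-Fe and 1.97 CPM in chow-Fe hearts, all HFHS-Fe values being lower (adjusted p = 0.189). Kcnmb1, the smooth muscle partner of Kcnma1, averaged 2.12 and 2.41 CPM (adjusted p = 0.636). Kcnip3, Kcnip1 and Kcnab1 averaged 2.25, 0.624 and 1.76 CPM in HFHS-Fe hearts and 2.65, 1.15 and 1.70 CPM in chow-Fe hearts.

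Proteins outside the Kcn family place, modify or transcribe these channels, and 30 of their genes were listed. Of the 26 that were tested, 12 were higher in HFHS-Fe hearts (46.2%, against 19.4% of all tested genes) and 2 were lower (7.69%, against 18.7%), with a median log2 fold change of 0.24. With the length and GC offsets 8 of the 26 were higher and 1 lower, where 15.8% of all tested genes were called higher and 15.1% lower. Dpp6 and Dpp10, which in neurons and in human heart join the Ito channels, had 3 counts and 0 counts in all, and Lrrc26 had none. Besides Abcc9 and Abcc8, Klf15, a transcription factor that drives Kcnip2 in the mouse heart, rose with a log2 fold change of 0.49 (adjusted p = 0.00263). Klf15 was at 38.4, 39.6 and 38.5 CPM in HFHS-Fe hearts and 24.1 and 31.2 CPM in chow-Fe hearts, while Kcnip2 did not pass. Nedd4, a ubiquitin ligase that marks membrane proteins for removal, rose by 0.66 on the log2 scale, the scaffold Akap9 that binds Kcnq1 by 0.71, and the actin linker Actn2 by 0.45. With the length and GC offsets these values were 0.39, 0.28 and 0.48. Akap9, whose exons hold 21350 bases, did not pass with offsets for exon length alone (0.26, adjusted p = 0.0655). The popeye-domain genes Popdc2 and Bves, whose proteins bind Kcnk2 channels, rose by 0.39 and 0.30, and the ubiquitin ligase Rnf207, known from rabbit heart cells to act on Kcnh2 channels, by 0.44. Dlg1, Flna and Lrrc52 also passed, with log2 fold changes of 0.26, 0.35 and 1.14, the last on 10 to 34 counts per library. Lrrc52, counted among the 12, had 10 and 20 chow-Fe counts. It passed the filter on low counts only through the HFHS-Fe libraries, where it was higher.

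The 2 partner genes that fell were Cav3, the caveolin of muscle, and Fhl2, a cofactor that binds Kcne1. Cav3 was at 22.4, 24.6 and 27.2 CPM in HFHS-Fe hearts and 39.9 and 39.8 CPM in chow-Fe hearts, with log2 fold changes of -0.69 (adjusted p = 8.89e-05) and -0.32 with the offsets, its exons holding only 1157 bases. Fhl2 averaged 1142 CPM in HFHS-Fe and 1479 CPM in chow-Fe hearts, with a log2 fold change of -0.37 (adjusted p = 0.00470) that did not pass with the offsets (-0.12, adjusted p = 0.355; range over the alternatives 1.3e-07 to 0.393). Of the higher genes, Abcc8, Dlg1, Flna and Rnf207 lost their calls with the offsets. Without chow-Fe replicate 1, Abcc8, Dlg1, Bves and Lrrc52 did, with log2 fold changes of 0.22, 0.11, 0.13 and 0.72. Dlg1 and Bves also lost them without any of the HFHS-Fe libraries, Lrrc52 without HFHS-Fe replicate 1 or 2, Abcc8 without HFHS-Fe replicate 2, and Flna and Fhl2 without chow-Fe replicate 2 (0.21 and -0.18).

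The chow-Fe libraries differed from each other in several channel genes at once. In replicate 2 Kcnj2 was 1.76-fold, Kcnv2 1.57-fold, Kcnd3 1.55-fold and Kcnh2 1.41-fold as high as in replicate 1, and for Kcnv2, Kcnd3 and Kcnh2 the HFHS-Fe mean lay nearer to replicate 2. Each chow-Fe library was also left out in turn, which leaves 1 library in that group. Kcnj2 then changed sides, with a log2 fold change of 0.47 without replicate 2 (adjusted p = 0.00542) and -0.34 without replicate 1 (adjusted p = 0.0284; range over the alternatives 0.00542 to 0.981). Kcnk3, Kcnh2, Kcnd3, Kcnv2 and Kcnt1 passed in no fit but the one without replicate 2, with log2 fold changes of 0.28, 0.53, 0.62, 0.57 and 1.87. Kcnj3 passed there too (0.45). Kcnj11, Kcnj5, Kcng2, Kcnd2, Kcnj12 and Kcnn2 were higher, and Kcnj8 and Kcna5 lower, at an adjusted p under 0.05 in all 15 alternative fits.

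**Figure D5:**
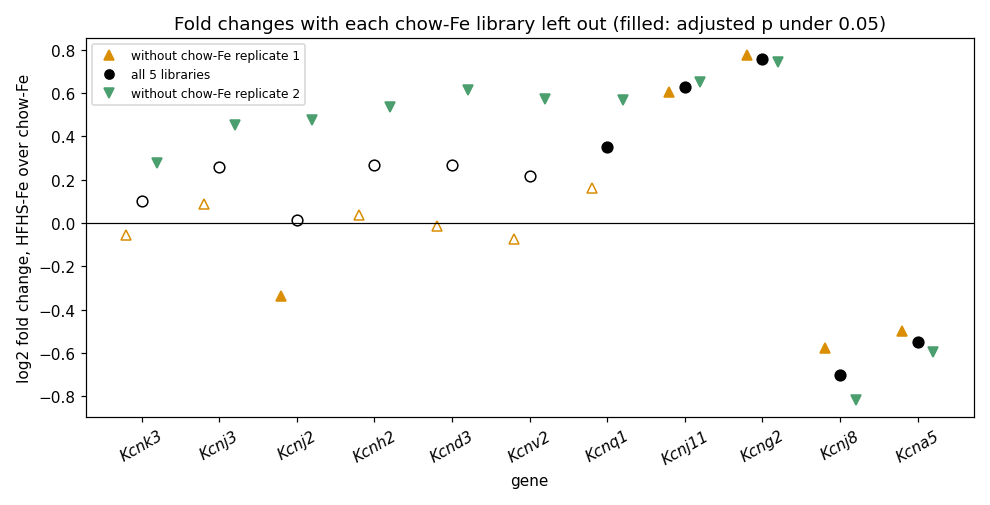
Log2 fold change of HFHS-Fe over chow-Fe for 11 Kcn genes with all 5 libraries (circles) and with chow-Fe replicate 1 (upward triangles) or replicate 2 (downward triangles) left out; filled symbols have an adjusted p under 0.05. Kcnj2 changes sign, with -0.34 and 0.47, while Kcnj11, Kcng2, Kcnj8 and Kcna5 keep their direction and call.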

How the data were processed

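Poly-A RNA from mouse heart was counted per gene in 5 libraries. The authors deposited raw counts, 1 table per library, with exon coordinates and exon length per the file headers. STAR 2.5.2b, Subread 1.5.2 (featureCounts), Trimmomatic 0.36 and the GRCm38 build are named in the submitters' processing notes, without their options, strand setting or gene annotation. Of the 44 genes described, 16 share exon bases with another gene, 15 of them on the opposite strand, and such reads cannot be told apart.

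Total counts ranged from 14362766 to 17774735, and 3 counts correspond to 0.169 to 0.209 CPM, for counting error only. No pair of libraries agreed within sampling noise (chi-square per degree of freedom of at least 2.64). Symbols came from GENCODE M21 (49056 of 49315 genes). Counts were fitted over all genes with edgeR 4.0.16 in R 4.3.3 (filterByExpr, trimmed-mean (TMM) scaling, quasi-likelihood test on diet, Benjamini-Hochberg adjusted p under 0.05), a procedure tested on simulated data. SEs are approximate, from the coefficient and its F statistic. FPKM and CPM use TMM-scaled library sizes. Alternatives were other scalings and filters, DESeq2 1.42.0, limma-voom 3.58.1, leaving out mitochondrial genes or each library, a replicate block, other thresholds or count minimum, and offsets per library from smooth trends (mgcv 1.9.3). GC content was known for all 44 genes.

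The genes, lists and alternatives were chosen with earlier results of these data known, and a few of the genes counted are not reported here by name. Values in every library are given for 20 principal genes fixed by name and for others past the threshold at 2 CPM or more in a group.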

Additional observations from a re-analysis of the deposited data

How the results depend on the processing

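Across 15 alternative fits, 9 of the 15 Kcn genes called kept their call in each fit in which they were tested, and the other 6 (Kcnq1, Kcnk2, Kcne4, Kcnc1 and Kcnk1 among them) lost it in at least 1; no called gene changed direction. Of the 29 others, 9 passed in at least 1 fit, and only Kcnj2 passed in both directions, with -0.34 without chow-Fe replicate 1 and 0.47 without chow-Fe replicate 2. The cause was not tested. The count of higher Kcn genes was 11, and 10 with any of the HFHS-Fe libraries left out. In those fits 2207 to 2574 of all tested genes were higher and 2041 to 2355 lower. The count moved both ways when a chow-Fe library was left out. That of lower Kcn genes was 4, and 3 with any of the HFHS-Fe libraries left out (2 at an adjusted p under 0.01). Partner genes numbered 12 higher (8 to 11 with an HFHS-Fe library left out) and 2 lower (also 2 in those fits). Only 1 partner gene was lower with exon length offsets, and with exon length and GC offsets. DESeq2 called 8 Kcn genes higher and 3 lower, against 2347 and 2010 of all 14221 tested genes. Kcnq1, Kcnk1 and Kcnk2 were not among its calls. With the replicate number as a block, 11 Kcn genes were higher and 3 lower, against 2753 and 2579 of all tested genes. In that fit 14 partner genes were higher and 2 lower, with 1 residual degree of freedom. Kcnj3 passed there (0.34) and Kcnk2 did not (-0.59). The numbers are not said to pair the libraries, and deviations of same-numbered libraries correlated at 0.0348 and 0.0258. With 2 chow-Fe libraries the chow-Fe deviations mirror each other, so these values cannot decide whether the libraries are paired. Leaving out a chow-Fe library leaves 1, assumed to vary like the HFHS-Fe libraries. Genes under about 2 CPM have few counts, and a difference there may not be detectable at this depth.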
